A study of Homo sapiens with 6 samples.

Results

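Cancer-testis antigen families were read on 6 human expression arrays by 71 of the 54613 probe sets that were not controls, which named 69 of 21357 genes. A probe set was taken where every gene symbol that the platform annotation gives for it began with MAGEA, MAGEB, MAGEC, SSX, GAGE, XAGE, PAGE, SPANX, CTAG or CSAG, or was PRAME or DDX43. Of the 71, 61 probe sets named 62 genes of these families. The other 10 named SSX2IP or genes of the CTAGE family, whose symbols only begin alike, and they are described separately. Of the 61, 24 named several genes and are read as family values. A total of 32 were of the types marked _x_at or _s_at, whose probes can match close paralogs, so the copy that such a probe set reads is uncertain.

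The wtCopFry group held 3 samples labelled 231wCFry, a stably transfected clone of MDA-MB-231 that carries the wild-type Cop Fry cDNA of the COP rat, taken after puromycin selection. The not_transfected group held 3 samples of MDA-MB-231, an established line of invasive human breast cancer cells, with no treatment. The Fry protein is a very large scaffold for kinases of the NDR family. The labels describe 1 clone and no clone with an empty vector, and they state that the passage number varied without giving it for any sample. They name no separate cultures, so the p-values measure only the spread between these samples, which may be technical.

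Values are MAS5 signals on a linear scale, and differences are wtCopFry minus not_transfected on log2(signal + 16), which understates changes of dim probe sets. Of all probe sets, 32771 with a mean signal of at least 5.87 were tested with limma and called at a Benjamini-Hochberg adjusted p under 0.05. The background level of an array was its highest unspiked bacterial control probe set (2.5 to 4.9), and a group whose 3 arrays all stayed within it is called not above background. A fold given as "at least" was computed against that level. Arrays of a group correlated at 0.992 to 0.995 across probe sets and arrays of different groups at 0.869 to 0.874. As a measure of RNA quality, 3' over 5' GAPDH signal was 1.24 to 1.33 on the wtCopFry arrays and 1.36 to 1.39 on the not_transfected arrays, and its part in the results was not tested.

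Many lineage markers went against the labels, under which both groups are 1 cell line. The summed signal of 9 melanocyte markers was 5533 to 5958 on the arrays labelled wtCopFry, against 379.5 to 455.3 on the not_transfected arrays, and 7 of the 8 tested were called higher, where 34.1% of all genes tested were. PMEL, a melanosome protein, was an exception at 3.2 to 8.2 on the arrays labelled wtCopFry and 4.3 to 14.3 on the not_transfected arrays. The summed signal of 10 mammary epithelial markers was 1718 to 1808 on the arrays labelled wtCopFry and 6277 to 6951 on the not_transfected arrays. Of the 7 tested, 1 was called higher and 5 lower, where 33.1% of all genes tested were lower. Most of the sum on the arrays labelled wtCopFry was KRT18, a keratin of simple epithelia, at 1458 to 1568, against 2877 to 3213 on the not_transfected arrays. KRT14, a basal keratin, went the other way, at 109.4, 118.8 and 112.2 on the arrays labelled wtCopFry against 0.2, 2.4 and 0.5 on the not_transfected arrays (at least 33.1-fold higher), and CDH1 was dim in both groups and not called. EPCAM, an epithelial adhesion molecule, was near background in the first group at 2.6, 4.1 and 7.1, against 206.0, 228.8 and 268.7 on the not_transfected arrays. The 4 probe sets for FRY read at most 5 on the arrays labelled wtCopFry and 9.8 on the not_transfected arrays. They were designed on the human gene, and whether they detect the rat cDNA was not tested, so they do not check the labels. Every direction below is therefore between the arrays labelled wtCopFry and the not_transfected arrays, and none can be assigned to Fry.

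Cancer-testis genes are expressed in male germ cells, and some in placenta, and are silent in most other adult tissues. Methylation of CpG dinucleotides in their promoters is a known part of that silencing, and loss of it lets tumours such as melanoma express them, so that their peptides become targets of T cells. Many form families of recent duplicates on the X chromosome, often in inverted repeats. Of the 62 family genes here, 58 were found on the X chromosome in a RefSeq gene table, PRAME and DDX43 lay on chromosomes 22 and 6, and GAGE4 and GAGE7 were not matched.

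Methylation of promoter CpGs is a known part of the control of these genes, but it was not measured here, and its part in the differences was not tested. The promoters of 5 genes, chosen for their different readings, are shown. Each runs from 250 bases before to 50 bases after the first listed start, from RefSeq on GRCh38.p14, with every CG in capitals. MAGEA6 (chrX:152769640-152769939, minus strand) and MAGEC1 (chrX:141903644-141903943, plus strand) were read high on the arrays labelled wtCopFry. SPANXB1 (chrX:141002344-141002643, plus strand) and XAGE1A (chrX:52495627-52495926, plus strand) were read high on the not_transfected arrays. MAGEA4 (chrX:151912224-151912523, plus strand) was dim in both groups.
MAGEA6: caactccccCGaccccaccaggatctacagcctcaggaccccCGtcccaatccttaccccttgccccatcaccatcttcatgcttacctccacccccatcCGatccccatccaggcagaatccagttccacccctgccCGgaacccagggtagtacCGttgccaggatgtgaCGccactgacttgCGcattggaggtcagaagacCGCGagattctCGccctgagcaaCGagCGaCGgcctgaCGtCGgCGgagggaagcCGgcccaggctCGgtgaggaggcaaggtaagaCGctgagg
MAGEC1: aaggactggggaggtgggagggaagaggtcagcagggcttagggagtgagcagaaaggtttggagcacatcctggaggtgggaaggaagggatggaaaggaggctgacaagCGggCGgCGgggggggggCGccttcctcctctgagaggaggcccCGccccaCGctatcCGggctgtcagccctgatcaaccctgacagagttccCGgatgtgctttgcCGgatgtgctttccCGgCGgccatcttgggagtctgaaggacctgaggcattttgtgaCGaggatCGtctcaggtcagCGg
SPANXB1: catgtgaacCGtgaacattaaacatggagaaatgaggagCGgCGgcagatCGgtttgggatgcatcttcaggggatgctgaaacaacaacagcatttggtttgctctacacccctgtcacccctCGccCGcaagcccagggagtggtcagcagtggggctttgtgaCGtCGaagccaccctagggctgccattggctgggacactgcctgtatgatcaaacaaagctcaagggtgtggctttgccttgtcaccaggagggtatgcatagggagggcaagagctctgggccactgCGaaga
XAGE1A: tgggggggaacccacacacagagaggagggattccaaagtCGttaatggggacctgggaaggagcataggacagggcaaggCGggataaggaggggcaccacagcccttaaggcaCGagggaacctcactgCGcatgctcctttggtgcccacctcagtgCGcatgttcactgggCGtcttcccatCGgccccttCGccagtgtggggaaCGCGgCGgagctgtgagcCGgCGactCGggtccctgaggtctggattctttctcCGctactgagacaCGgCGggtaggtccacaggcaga
MAGEA4: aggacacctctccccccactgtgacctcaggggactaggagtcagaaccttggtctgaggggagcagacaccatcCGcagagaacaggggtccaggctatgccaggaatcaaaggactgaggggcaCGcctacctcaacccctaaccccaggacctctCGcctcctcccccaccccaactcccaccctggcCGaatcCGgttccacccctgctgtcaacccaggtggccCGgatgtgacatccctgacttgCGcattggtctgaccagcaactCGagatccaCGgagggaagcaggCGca
These windows hold 19 CG in MAGEA6, 14 in MAGEC1, 9 in SPANXB1, 17 in XAGE1A and 10 in MAGEA4. The MAGEA3 window is identical to that of MAGEA6 in 300 of 300 bases, and that of XAGE1B to XAGE1A.

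The arrays differed widely, and the families have to be read against that. Of all tested probe sets, 30.3% were called higher and 32.3% lower on the arrays labelled wtCopFry. Among the 61 family probe sets, 34 were called higher, 6 were called lower, 3 were tested and not called, and 18 lay below the filter. A probe set bright in a single group passed the filter through that group, so counts over all 61 in a fit without the filter were also made. In it 35 were higher and 6 lower, where 18.3% and 19.7% of all 54613 probe sets were. The wtCopFry arrays all lay above the not_transfected arrays for 36 of the 61 and all below for 7, against 22.3% and 24.1% of all probe sets. The median difference over the 61 without the filter was 1.0, and -0.01 over all probe sets. Over the 43 tested it was 2.62, against -0.02 over all tested.

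The families also held many of the large differences. A difference of at least 4 on the log2 scale was called higher in 0.632% and lower in 0.537% of all tested probe sets. Of the 61 family probe sets, 18 were called higher and 5 lower at that size. Most families were called in a single direction. MAGEA, MAGEB, MAGEC, CSAG, CTAG, GAGE and SSX held calls in the higher direction and none in the lower, SPANX held calls in the lower direction and none in the higher, and XAGE and PAGE held 1 of each. No gene had probe sets called in opposite directions. Fewer cells that express a gene and less RNA per cell cannot be told apart in bulk RNA.

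**Figure D1:**
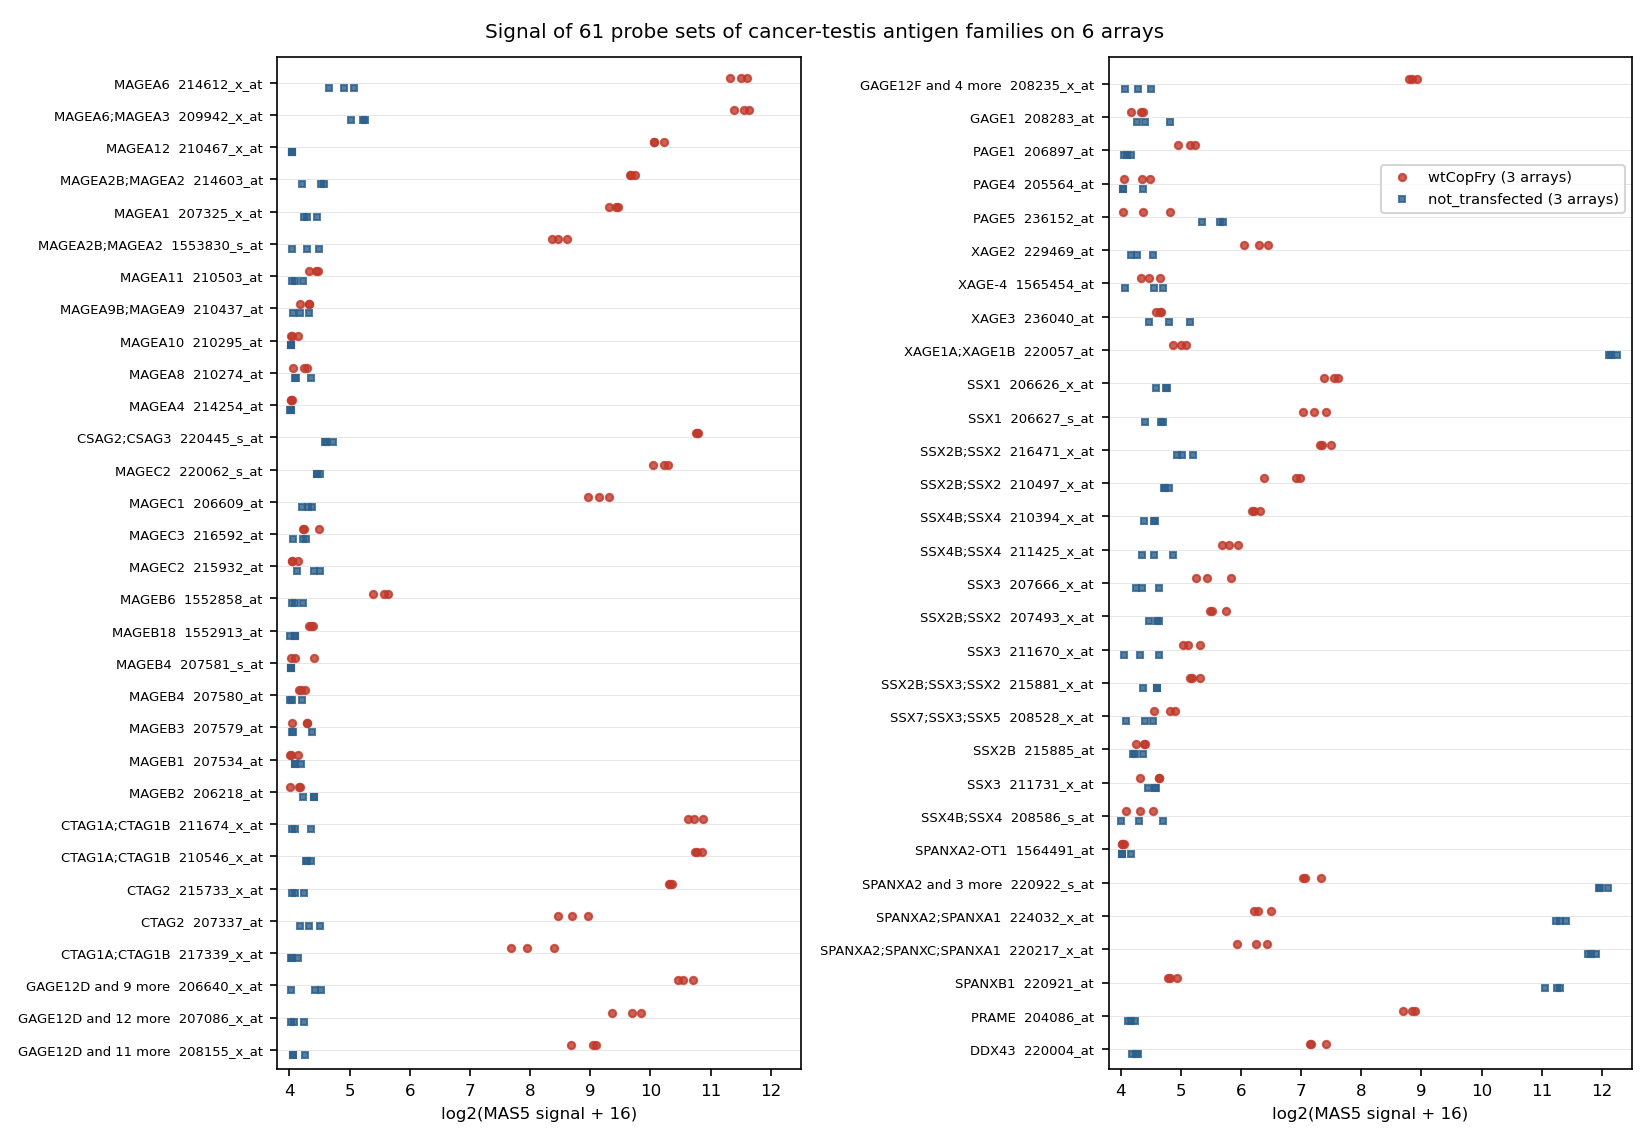
Signal of each of the 61 family probe sets on the log2(MAS5 signal + 16) axis, with a circle for each of the 3 wtCopFry arrays and a square for each of the 3 not_transfected arrays. The MAGEA, CSAG, MAGEC, CTAG and GAGE readings called higher lie far to the right of their squares, XAGE1A;XAGE1B and 4 SPANX readings lie far to the left of theirs, and the SSX readings are closer together.

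The MAGEA genes encode MAGE homology domain proteins that bind RING-type ubiquitin ligases. The family divided into genes with high signal on the arrays labelled wtCopFry and genes near background on all 6 arrays. The probe set shared by MAGEA3 and MAGEA6 (209942_x_at), whose proteins are known to direct TRIM28 to AMPK, read 2983, 2652 and 3174 on the arrays labelled wtCopFry, against 16.5, 21.4 and 22.2 on the not_transfected arrays. The groups lay far apart, with a log2 difference of 6.36 (SE 0.107, adjusted p = 2.49e-10). The MAGEA6 probe set (214612_x_at) gave 6.60 (SE 0.126, adjusted p = 3.99e-10), but with near-identical genes the MAGEA3 and MAGEA6 shares cannot be told apart.

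MAGEA12 read 1055, 1053 and 1178 on the arrays labelled wtCopFry, against 0.4 on each of the not_transfected arrays. Its not_transfected level was not above background, so the signal was at least 319-fold higher (log2 difference 6.08, SE 0.0889, adjusted p = 1.85e-10). With the array median in place of the bacterial controls, that bound was 98.4-fold. MAGEA1, a classic tumour antigen recognised by T cells, read 675.2, 620.6 and 689.3 against 2.9, 3.5 and 6.0 on the not_transfected arrays (5.07, SE 0.0977, adjusted p = 4.03e-10). Both probe sets shared by MAGEA2 and MAGEA2B were higher, although at different levels. The first (214603_at) averaged 810.3 ± 23.7 on the arrays labelled wtCopFry and 5.70 ± 2.80 on the not_transfected arrays (SD, n = 3 each), and the other (1553830_s_at) 341.7 ± 29.9 and 3.57 ± 3.05, with log2 differences of 5.26 and 4.20.

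The other 5 MAGEA probe sets, for MAGEA4, MAGEA8, MAGEA10, MAGEA11 and the pair MAGEA9 and MAGEA9B, read 0.2 to 6.2 on the arrays labelled wtCopFry and 0.1 to 4.4 on the not_transfected arrays, below the filter. MAGEA11, a coregulator of the androgen receptor, read 5.6, 4.0 and 6.2 against 2.7, 1.0 and 0.4 on the not_transfected arrays. It passed in the fit without the filter (log2 difference 0.29, adjusted p = 0.024), and the other 4 did not. Their low values are those of single probe sets and do not bound the transcript level.

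CSAG2 and CSAG3, named for chondrosarcoma and interleaved with the MAGEA genes, were read by 1 shared probe set. It gave 1728, 1722 and 1749 on the arrays labelled wtCopFry, against 8.0, 10.5 and 8.3 on the not_transfected arrays. Replicates were close, and the log2 difference was 6.13 (SE 0.0872, adjusted p = 1.61e-10).

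Among the MAGEC genes, MAGEC1 read 616.1, 550.9 and 482.1 on the arrays labelled wtCopFry, against 2.4, 4.7 and 3.9 on the not_transfected arrays (log2 difference 4.84, SE 0.110, adjusted p = 9.92e-10). For MAGEC2, a partner of TRIM28, the 2 probe sets disagreed. The first (220062_s_at) read 1174, 1034 and 1239 against 6.0, 5.9 and 6.8 on the not_transfected arrays, a difference of 5.71 (SE 0.0969, adjusted p = 2.49e-10). The second (215932_at) read 0.4, 1.6 and 0.4 against 1.5, 5.1 and 6.8 on the not_transfected arrays, below the filter, and the reason for the disagreement was not tested. MAGEC3 was dim, at 2.6 to 6.4 on the arrays labelled wtCopFry and 0.7 to 3.3 on the not_transfected arrays.

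MAGEB genes were near background except for MAGEB6. MAGEB6 read 33.7, 31.7 and 25.7 on the arrays labelled wtCopFry, against 1.1, 0.5 and 2.6 on the not_transfected arrays. That was at least 8.80-fold higher (log2 difference 1.41, SE 0.102, adjusted p = 2.24e-06), or 2.72-fold with the array median as the level. The other 6 MAGEB probe sets read 0.1 to 5.1 on the arrays labelled wtCopFry and 0.1 to 5.3 on the not_transfected arrays. Of these, MAGEB18 passed in the fit without the filter (0.29, adjusted p = 0.0103), with 4.0, 4.9 and 4.5 against 0.1, 1.1 and 1.0 on the not_transfected arrays.

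CTAG1A and CTAG1B are identical copies that encode NY-ESO-1, an antigen used as a target of engineered T cells, and CTAG2 encodes its relative LAGE-1. All 5 CTAG probe sets were higher on the arrays labelled wtCopFry. The probe set 210546_x_at, shared by CTAG1A and CTAG1B, read 1725, 1695 and 1834 on the arrays labelled wtCopFry, against 3.4, 4.5 and 3.5 on the not_transfected arrays (log2 difference 6.48, SE 0.0865, adjusted p = 1.34e-10). A second shared set (211674_x_at) gave 6.58, and a dimmer set (217339_x_at), which read 229.5, 322.2 and 189.4 against 0.4, 0.2 and 1.6 on the not_transfected arrays, gave 3.94 and was at least 70.3-fold higher. For CTAG2, 215733_x_at averaged 1270 ± 24.8 on the arrays labelled wtCopFry and 1.47 ± 1.27 on the not_transfected arrays (SD, n = 3 each), and 207337_at 406.4 ± 74.0 and 4.33 ± 2.36. Their log2 differences were 6.20 and 4.37, and the adjusted p of the 5 was at most 4.92e-08.

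GAGE, PAGE and XAGE genes encode small, related acidic proteins. The 4 GAGE probe sets that name several copies were all higher on the arrays labelled wtCopFry. The brightest (206640_x_at, 10 genes) read 1478, 1386 and 1649 on the arrays labelled wtCopFry, against 0.2, 5.4 and 7.0 on the not_transfected arrays (log2 difference 6.25, SE 0.139, adjusted p = 8.66e-10). The widest (207086_x_at, 13 genes) read 901.8, 807.9 and 638.8 against 0.3, 2.9 and 0.9 on the not_transfected arrays and was at least 226-fold higher, or 69.7-fold with the array median. The other pair of sets (208155_x_at and 208235_x_at) gave 4.82 and 4.57, and the first of them was at least 139-fold higher. The probe set that names GAGE1 alone (208283_at) read 2.0, 4.3 and 4.7 against 5.2, 3.4 and 12.2 on the not_transfected arrays and lay below the filter. The array therefore gives a value for the GAGE cluster and not for its copies.

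XAGE genes went both ways. The probe set shared by XAGE1A and XAGE1B read 18.1, 16.1 and 13.3 on the arrays labelled wtCopFry, against 4518, 4881 and 4436 on the not_transfected arrays. This was the brightest family reading of the not_transfected arrays, and the mean was 291 times higher there (log2 difference -7.19, SE 0.0961, adjusted p = 1.34e-10). XAGE2 moved in the other direction, with 63.1, 71.9 and 50.4 on the arrays labelled wtCopFry and 2.0, 7.3 and 3.3 on the not_transfected arrays (1.94, SE 0.135, adjusted p = 1.71e-06). XAGE3 and the reading named XAGE-4 were not called, with differences of -0.17 (adjusted p = 0.383) and 0.05 (adjusted p = 0.803).

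PAGE genes were dimmer and also divided. PAGE1 read 14.9, 19.8 and 21.6 on the arrays labelled wtCopFry, against 0.7, 2.0 and 1.3 on the not_transfected arrays, at least 5.41-fold higher (log2 difference 1.0, SE 0.101, adjusted p = 2.28e-05). With the array median as the level, the bound was 1.67-fold. PAGE5 read 12.4, 0.4 and 4.8 against 36.2, 34.2 and 25.1 on the not_transfected arrays (-1.16, SE 0.186, adjusted p = 4.73e-04). PAGE4, known as a prostate-associated disordered protein, was dim on all 6 arrays, with overlapping groups.

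SSX genes encode nuclear proteins with a KRAB-like repressor domain, and fusions of SSX1, SSX2 or SSX4 to SS18 mark synovial sarcoma. Of the 14 SSX probe sets, 11 were called higher on the arrays labelled wtCopFry, by 0.41 to 2.81 on the log2 scale, against 4.20 to 6.60 for the MAGEA probe sets called higher. SSX1 (206626_x_at) read 179.0, 170.6 and 151.2 on the arrays labelled wtCopFry, against 8.0, 11.4 and 11 on the not_transfected arrays (log2 difference 2.81, SE 0.101, adjusted p = 1.88e-08). Its second probe set (206627_s_at) gave 2.62. The 3 probe sets shared by SSX2 and SSX2B gave 2.33, 2.01 and 1.01, the first of them (216471_x_at) with 143.4, 165.2 and 146.2 against 21.0, 14.6 and 16.5 on the not_transfected arrays. In each of these the groups did not overlap, and in no SSX probe set were the 3 not_transfected arrays all at background.

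Of the 3 probe sets shared by SSX4 and SSX4B, 210394_x_at gave 1.74 and 211425_x_at 1.22, and 208586_s_at lay below the filter with overlapping groups. For SSX3, 207666_x_at gave 1.10 and 211670_x_at 0.81, while 211731_x_at read 9.0, 4.1 and 8.8 against 7.8, 5.9 and 8.0 on the not_transfected arrays and was not called (adjusted p = 0.990). A probe set named for SSX2, SSX2B and SSX3 gave 0.69, and the set for SSX2B alone (215885_at) lay below the filter at 5.3, 3.0 and 4.9 against 2.8, 2.4 and 4.8 on the not_transfected arrays. The reading named for SSX3, SSX5 and SSX7 (208528_x_at) was the weakest call, at 7.4, 13.9 and 12.2 against 5.2, 1.0 and 7.2 on the not_transfected arrays (0.41, SE 0.139, adjusted p = 0.0273). It missed the threshold in 6 of 12 alternatives (adjusted p 0.0505 to 0.0970), among them the fits without wtCopFry replicate 2, without wtCopFry replicate 3 and without not_transfected replicate 2. All 11 calls but 1 came from probe sets of type _x_at, and that 1 was of type _s_at, so the readings of single SSX genes may share transcripts.

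SPANX genes encode proteins associated with the sperm nucleus. Of their 5 probe sets, 4 were lower on the arrays labelled wtCopFry. The probe set of SPANXA1 and SPANXA2 (224032_x_at) read 58.5, 61.5 and 74.3 on the arrays labelled wtCopFry, against 2503, 2409 and 2702 on the not_transfected arrays (log2 difference -4.99, SE 0.104, adjusted p = 6.06e-10). The set that adds SPANXC (220217_x_at) read 70.5, 45.3 and 60.4 against 3607, 3467 and 3805 on the not_transfected arrays (-5.62), and the set of all 4 genes (220922_s_at) 118.2, 115.4 and 144.3 against 3956, 3989 and 4354 (-4.86). SPANXB1 alone gave -6.35 (SE 0.101, adjusted p = 2.18e-10), with its mean 182 times higher on the not_transfected arrays. In all 4 sets the arrays labelled wtCopFry still read above the array median. For SPANXB1 this was by little, at 11.6, 12.2 and 14.8 against array medians of 10.7 to 11.2. SPANXA2-OT1, an overlapping transcript, was at background in both groups.

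PRAME, a leucine-rich repeat protein known to bind retinoic acid receptors and to serve as a substrate receptor of a cullin ligase, read 397.4, 462.1 and 443.5 on the arrays labelled wtCopFry, against 1.4, 2.1 and 2.9 on the not_transfected arrays. The not_transfected arrays were not above background, and the signal was at least 126-fold higher (log2 difference 4.63, SE 0.0945, adjusted p = 5.21e-10), or 39.0-fold with the array median. DDX43, an RNA helicase, read 125.4, 154.3 and 126.7 against 3.5, 3.2 and 2.2 on the not_transfected arrays (2.99, SE 0.102, adjusted p = 1.30e-08). Neither gene lies on the X chromosome, and both moved in the direction of most X-linked families.

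**Figure D2:**
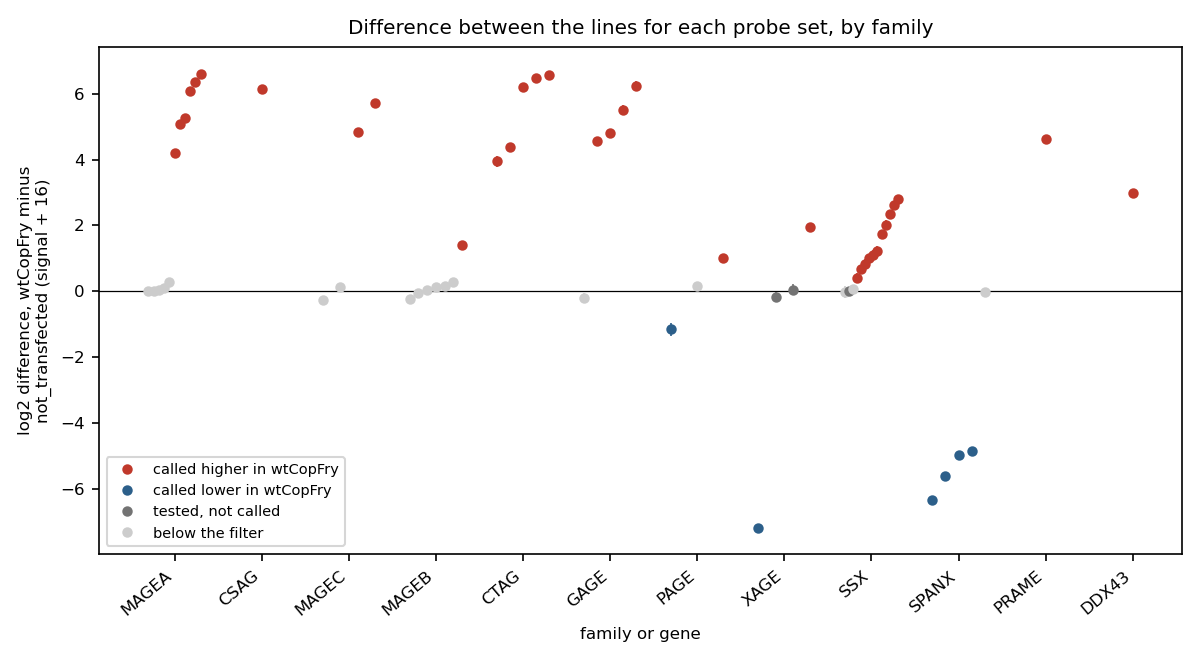
Log2 difference (wtCopFry minus not_transfected, signal + 16) of each of the 61 family probe sets by family, with bars for the limma standard error from the fit without the filter. Colours mark probe sets called higher (34), called lower (6), tested and not called (3) and below the filter (18). MAGEA and MAGEC divide into large differences and values near 0, SSX forms a graded run, and SPANX lies below 0.

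Among the 34 higher calls, 22 were of type _x_at, 4 of type _s_at and 8 of neither type. Of the 61 family probe sets, 32 were of type _x_at or _s_at. Most of these were called higher, against a minority of the others, so the higher calls lay mainly in probe sets that can match close paralogs. Of the 6 lower calls, 3 were of neither type. The 8 without such probes were MAGEA2B;MAGEA2 (214603_at), MAGEC1, MAGEB6, CTAG2 (207337_at), PAGE1, XAGE2, PRAME and DDX43, and all but the first named 1 gene. A higher call that rests on no such probe set was thus at hand in the MAGEA, MAGEB, MAGEC, CTAG, PAGE and XAGE families, and in neither GAGE, CSAG nor SSX.

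The 10 probe sets of SSX2IP and CTAGE genes did not share these differences. SSX2IP encodes a centrosome and junction protein found as a binding partner of SSX2. Its 6 probe sets differed by -0.48 to -0.18, and 3 were called lower, the strongest (203016_s_at) with 285.5, 363.0 and 268.5 on the arrays labelled wtCopFry against 407.3, 440.1 and 439.5 on the not_transfected arrays (SE 0.119, adjusted p = 0.00629). Of 4 CTAGE probe sets, 1 was called lower (-0.43, adjusted p = 0.0156). The fits without wtCopFry replicate 1, without wtCopFry replicate 2 and without not_transfected replicate 2 each ended that CTAGE call, and they also ended the SSX2IP call of 203017_s_at. The third SSX2IP call (210871_x_at) was lost in 5 of the 6 fits that leave out an array. All 71 together held 34 higher and 10 lower calls.

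The order of genes along the X chromosome was taken from the RefSeq gene table, over 725 named genes on the array, with no coordinates. The stretches below were chosen after their values had been seen. MAGEA3, CSAG2, MAGEA2B, MAGEA12, MAGEA2, CSAG3 and MAGEA6 follow each other in that order, and every probe set naming them was higher on the arrays labelled wtCopFry. Except for 214603_at, which names both MAGEA2 and MAGEA2B, these probe sets were of type _x_at or _s_at. The signal of a single gene may therefore appear at several positions. The genes on either side of this stretch differed by less or in the other direction. GABRA3, a GABA receptor subunit before them, averaged 26.6 ± 8.82 on the arrays labelled wtCopFry and 1.87 ± 2.12 on the not_transfected arrays (log2 difference 1.24, adjusted p = 8.94e-05). CETN2, a centrin after them, differed by -0.35 (adjusted p = 0.0162), NSDHL, a sterol enzyme, by 0.01 (adjusted p = 0.921), and ZNF185, an actin-binding LIM protein, by -4.47 (adjusted p = 5.56e-09).

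In other stretches neighbours went opposite ways. SPANXB1, SPANXC, SPANXA1 and SPANXA2, which were lower on the arrays labelled wtCopFry, are followed by the MAGEC genes. Of these, MAGEC1 was higher, and so was MAGEC2 by 220062_s_at, while the MAGEC2 set 215932_at lay below the filter. LDOC1, a retrotransposon-derived gene between SPANXB1 and SPANXC, was also lower, at 0.3, 0.2 and 3.4 against 124.0, 121.6 and 126.4 on the not_transfected arrays (-3.02, SE 0.0998, adjusted p = 1.04e-08). XAGE2, which was higher, comes directly before XAGE1A and XAGE1B, which were lower. SSX7, SSX2 and SSX2B follow, and every tested reading that names any of these SSX genes was called higher. The set for SSX2B alone lay below the filter. The only reading of SSX7 also names SSX3 and SSX5, which lie outside this stretch. It lost its call in 6 of 12 alternatives, so it cannot place a difference at SSX7.

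**Figure D3:**
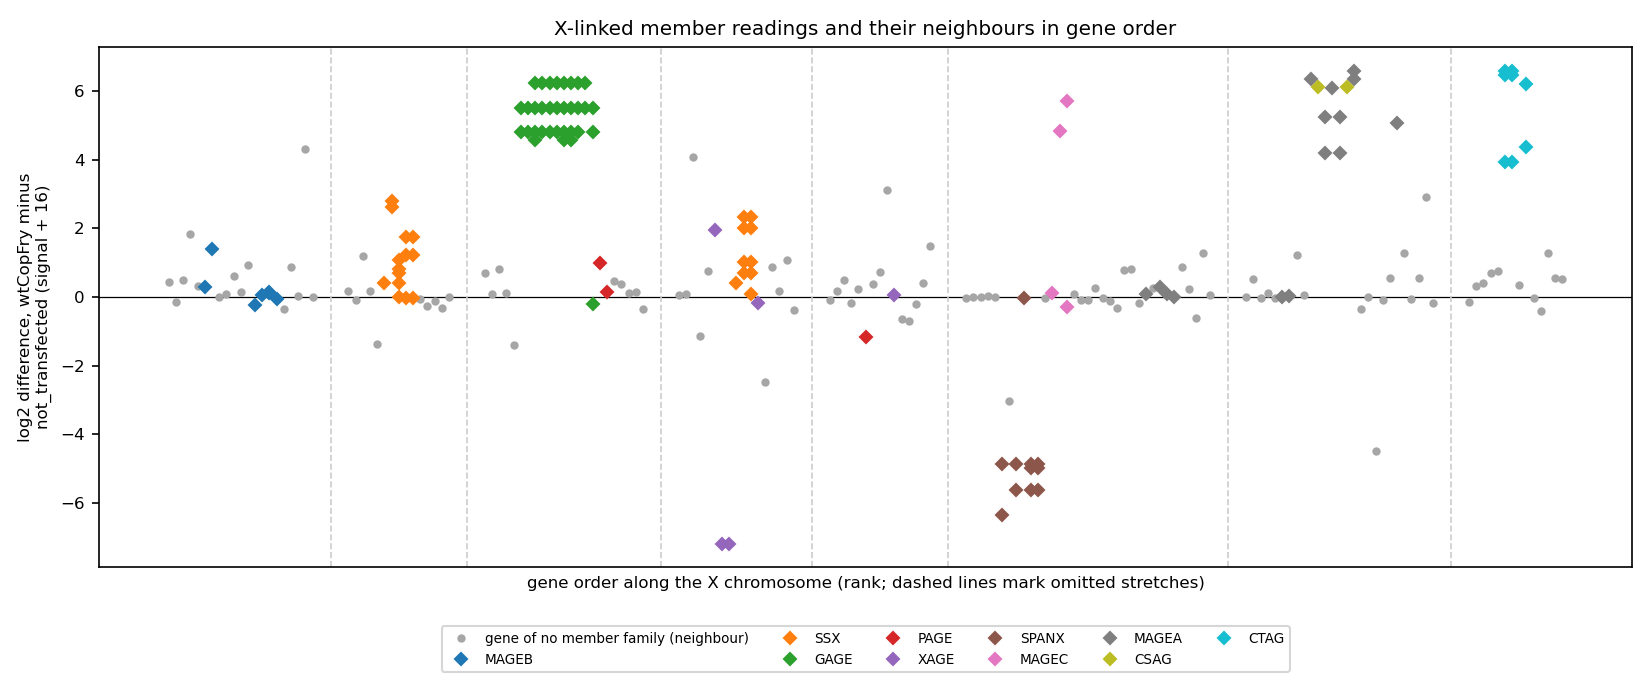
Log2 difference (wtCopFry minus not_transfected, signal + 16, no filter) against gene order along the X chromosome, by rank and not to scale, with omitted stretches at the dashed lines. Diamonds are family readings, drawn at every gene a probe set names, and grey points are up to 5 named neighbours on each side. The multi-copy GAGE readings, the stretch from MAGEA3 to MAGEA6 with CSAG, MAGEA1 and CTAG lie above 0, the other MAGEA readings lie near 0, the set for GAGE1 alone lies at -0.21, SPANX lies below 0 next to MAGEC, and XAGE1A;XAGE1B at -7.19 lies between XAGE2 and SSX.

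The rest of the X chromosome was read beside the families. Among a gene's probe sets, the 1 with the highest mean stands for it here. Of all 13630 genes tested this way, 34.1% were called higher and 33.1% lower. Of the 78 tested neighbours within 5 named genes of a member, 41 were higher (52.6%) and 16 lower (20.5%). Of the 372 other X-linked genes tested, 180 were higher (48.4%) and 82 lower (22.0%). The shares of neighbours lay near those of the rest of the chromosome, and both differed from the shares over all genes, by amounts that were not tested.

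The promoters of 51 family genes were found in the RefSeq table. Their median was 12 CG in 300 bases, against 14 over all 35116 promoters. The 31 genes with a probe set called higher held 5 to 21 (median 13), the 7 genes with a lower one 6 to 17 (median 9), and the 13 with no call 1 to 21 (median 10). The ranges overlapped, and near-identical copies among the 31 are not independent. The GAGE windows among them, called through shared probe sets, held 12 or 13 each, at or near the median of the 31. No promoter was found for MAGEA1, CTAG1A, CTAG1B or CTAG2, which were read higher on the arrays labelled wtCopFry. MAGEA4, dim on all 6 arrays, held 10 CG, and MAGEA11 held 21, against 19 in MAGEA3 and MAGEA6.

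Some MAGEA promoters are known to need ETS factors, which bind a GGAA or GGAT core. Only CCGGAA was searched, so ETS sites with other letters were not counted. For example, the MAGEC1 and MAGEA4 sequences shown above both hold CCGGAT. The letters CCGGAA, searched on both strands, occurred in 4 of the 51 windows (PRAME, MAGEB6, MAGEA3 and MAGEA6), against 17.2% of all promoters. They were in 12.9% of the 31 windows of genes with a higher call, in none of the 7 with a lower call and in none of the 13 with no call. The letters themselves hold a CG, so this match lies on a capital pair in the MAGEA6 sequence shown above. Between the windows of MAGEA4 and MAGEA6, 46.7% of aligned positions were identical, and 57.0% between MAGEA2 and MAGEA6. MAGEC1 and MAGEC2 shared 60.1%, and SPANXA1 and SPANXB1, which were both lower, shared 75%.

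Genes of 5 related lists were read beside the families. Of 57 other cancer-testis genes, 51 were measured and 26 tested, with 9 higher and 9 lower (median difference -0.14, against 0.01 over all tested genes). These shares lay near the 34.1% higher and 33.1% lower of all genes tested, against which the counts of the other lists also have to be read. ROPN1, a sperm flagellar protein, read 804.3, 838.3 and 788.3 on the arrays labelled wtCopFry, against 0.6, 0.5 and 1.0 on the not_transfected arrays, and was at least 236-fold higher. Its near copy ROPN1B was at least 183-fold higher, and reads of the pair cannot be fully separated. CT55 read 594.9, 634.7 and 643.2 against 4.1, 0.5 and 5.6 on the not_transfected arrays (5.05, SE 0.114). CT83 was opposite, at 1.3, 1.0 and 0.5 against 244.3, 245.0 and 197.4 on the not_transfected arrays, at least 64.7-fold lower. The adjusted p of these 4 was at most 2.83e-09, and 25 of the 51 measured genes lay below the filter.

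Of 35 measured chromatin regulators, which include the DNA methylation and Polycomb enzymes known to act at such promoters, 6 were called higher and 15 lower of 34 tested (median -0.17), where 34.1% and 33.1% of all genes tested were. MBD3, a subunit of the NuRD complex, read 180.3, 180.3 and 195.8 on the arrays labelled wtCopFry, against 852.8, 786.6 and 836.6 on the not_transfected arrays (-2.06, SE 0.0883, adjusted p = 6.12e-08). HDAC3, a histone deacetylase, differed by -1.33, EZH2, the Polycomb methyltransferase, by -1.21, and PCGF6, a subunit of a germline-gene repressor complex, by -1.20, with adjusted p of at most 5.72e-06. MBD3 was read by a probe set of type _x_at, and HDAC3, EZH2 and PCGF6 by sets of type _s_at. DNMT1, the maintenance DNA methyltransferase, was not called (-0.18, adjusted p = 0.118), and neither was DNMT3B (-0.16, adjusted p = 0.214). DNMT3A, which methylates DNA anew, was higher, at 403.7, 406.0 and 329.2 against 171.4, 195.2 and 150.2 on the not_transfected arrays (1.07, SE 0.123, adjusted p = 5.08e-05). DNMT1, DNMT3A and DNMT3B were named after their values had been seen.

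The MAGE genes that normal tissues express widely did not show the step of the MAGEA genes. Of 10 measured and 7 tested, 3 were higher and 3 lower (median -0.08), where 34.1% and 33.1% of all genes were. MAGED1, an adaptor of neurotrophin receptor signalling, averaged 847.5 ± 20.0 on the arrays labelled wtCopFry and 498.1 ± 51.9 on the not_transfected arrays (0.75, adjusted p = 1.31e-04). MAGEF1 also rose by 0.75, while MAGED2, mutated in a transient form of Bartter syndrome, fell by 0.65 and NSMCE3, a subunit of the SMC5-SMC6 complex, fell by 0.60. The adjusted p of these 4 was at most 0.00105.

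Of 25 measured proteins known to bind MAGE or PRAME proteins, 7 were called higher and 9 lower of 24 tested (median -0.16), near the 34.1% and 33.1% of all genes tested. PRKAA2, an AMPK catalytic subunit, read 1.3, 0.1 and 0.2 on the arrays labelled wtCopFry, against 49.9, 56.4 and 71.1 on the not_transfected arrays, at least 16.6-fold lower (-2.18, adjusted p = 2.68e-07). RARB, a retinoic acid receptor, read 107.4, 154.6 and 133.7 against 2.9, 6.0 and 4.9 on the not_transfected arrays (2.83, SE 0.129, adjusted p = 9.14e-08). TRIM28, the ligase partner of MAGEA3, MAGEA6 and MAGEC2, was named after its values had been seen and was not called (-0.02, adjusted p = 0.926). HDAC3, EZH2 and TRIM28 stand on both this list and the chromatin list.

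The last list held 17 transcription factors, the ETS factors and SP1, of which 15 were tested, with 4 higher and 9 lower (median -0.58), where 34.1% and 33.1% of all genes tested were. EHF, an epithelial ETS factor, read 87.3, 100.3 and 75.1 on the arrays labelled wtCopFry, against 668.1, 874.1 and 678.2 on the not_transfected arrays (-2.86, SE 0.134, adjusted p = 1.12e-07). SPDEF, known from secretory epithelia and read by a probe set of type _x_at, differed by -2.77. ELK3 and ETV6 both differed by -1.01, and the adjusted p of SPDEF, ELK3 and ETV6 was at most 4.92e-05. ETS1, the factor best known at MAGEA promoters, was named after its values had been seen and was not called (0.01, adjusted p = 0.944).

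**Figure D4:**
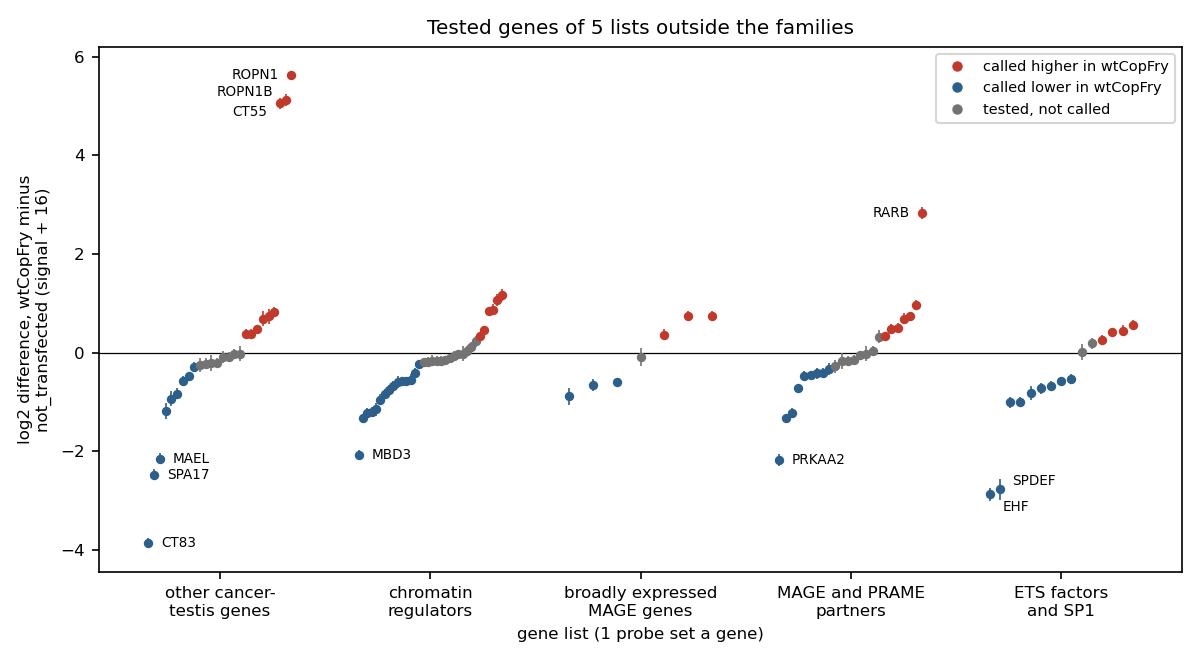
Log2 difference (wtCopFry minus not_transfected, signal + 16) of the tested genes of 5 lists, 1 probe set a gene, with bars for the limma standard error and colours for calls higher, lower or neither. ROPN1, ROPN1B and CT55 are the only points of these lists above 4, and CT83 lies lowest at -3.85.

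Markers of cell types that normally express cancer-testis genes were read as well, and their part in the family results was not tested. Of 11 male germ cell markers, 1 was called higher and 2 lower of 4 tested, where 34.1% and 33.1% of all genes tested were. The summed signal of the 11 was 79.6 to 93.7 on the arrays labelled wtCopFry and 100.6 to 118.1 on the not_transfected arrays. DMRT1 was the marker called higher, at 20.8, 32.1 and 20.2 on the arrays labelled wtCopFry against 3.3, 3.2 and 3.6 on the not_transfected arrays. SYCP3, at 32.4, 26.2 and 35.2 against 64.5, 81.3 and 61.8 on the not_transfected arrays, and the dim TNP1 were called lower. DAZL, DDX4 and ACR read at most 1.2 on the arrays labelled wtCopFry and 6.4 on the not_transfected arrays. Of 10 trophoblast markers, 2 were called higher and 2 lower of 5 tested, to be read against the same shares of all genes. The summed signal of the 10 was 2378 to 2874 on the arrays labelled wtCopFry and 676.2 to 868.1 on the not_transfected arrays. Most of that sum was TFAP2C, a factor that breast and germ cells also express, at 2311 to 2804 on the arrays labelled wtCopFry and 475.2 to 591.7 on the not_transfected arrays. Opposite to that sum, KISS1 read 12.0, 15.5 and 16.7 on the arrays labelled wtCopFry against 186.3, 122.5 and 184.2 on the not_transfected arrays. PAPPA was also lower, at 9.6, 10.0 and 11.5 against 24.8, 41.9 and 40.4 on the not_transfected arrays. CGA and CSH1, placental hormone genes, read at most 5.0 on the arrays labelled wtCopFry and 9.7 on the not_transfected arrays.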

How the data were processed

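The authors deposited MAS5 signal intensity values on a linear scale, 1 array per sample, per the submitters' processing notes. Neither the MAS5 version nor the scaling target is known from the labels. Per the labels' protocols, 40 ng of total RNA from cultures at 70% confluence was amplified and labelled with biotin. Probe sets were named through the platform annotation, and genes ordered through a RefSeq table.

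After leaving out 62 controls, log2(intensity + 16) was compared between 3 and 3 arrays by limma 3.58.1 (lmFit, eBayes; R 4.3.3), without covariates or further normalization, for 32771 probe sets at or above the 40th percentile of the mean (5.87). In a simulation in which only 200 of the 32771 probe sets differed, 83% of those differing by 1 and 100% of those differing by 2 (log2) were called. In the data 30.3% were called higher and 32.3% lower, so these recovery rates may not hold for the comparison made here. For arrays, their number limits the precision. Alternatives were pseudocounts of 1 and 64, other filters, quantile normalization, an intensity trend, a replicate block, leaving out each array, leaving out _x_at and _s_at probe sets, and another background level. Identical values reached at most 2.15% of probe sets in a pair of arrays of a group.

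The text names up to 4 called probe sets per family with the largest differences, PRAME, DDX43, family probe sets above the array median throughout a group, and up to 4 called genes per list with the smallest p. The members and lists were chosen with earlier results of these data known. Promoters were aligned with Biopython 1.88, and plots made with matplotlib 3.10.9 and Python 3.11.15.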

Additional observations from a re-analysis of the deposited data

How the results depend on the processing

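Of 508 alternative values of the 39 named family readings, 508 kept their direction and their side of the threshold. A reading that an alternative left out, by its filter or its probe set type, gave no value there and is not counted. The reading of SSX3, SSX5 and SSX7, called but outside those 39, lost its call in 6 of 12 alternatives (adjusted p 0.0505 to 0.0970). Without _x_at and _s_at probe sets the higher and lower calls numbered 8 and 4 over all 71 probe sets. Over the 61 of the families they numbered 8 and 3, and the median difference of those tested was 1.21. That fit left out the 22 _x_at and 4 _s_at higher calls, among them most of the higher MAGEA, CTAG and GAGE readings. The filter at the 60th percentile gave a median of 4.63, no filter 1.0, a pseudocount of 1 gave 3.89 and a pseudocount of 64 gave 1.45. Leaving out each array in turn gave 33 to 34 higher and 7 to 10 lower calls over the 71, 33 to 34 higher and 6 to 6 lower over the 61, and a median of 2.53 to 2.75. With the replicate number as a block the counts were 34 and 11 over the 71 and 34 and 6 over the 61, with a median of 2.62. Deviations of same-numbered arrays correlated at 0.0704, 0.0743 and 0.187, so the numbers are not taken to pair the samples. Of 140 list counts under alternatives, 135 lay within 1.5 times; the 5 that moved were all without _x_at and _s_at probe sets. With the array median as background, bounds were up to 3.24 times smaller. Arrays of 3 samples a group, MAS5 values near 0 and shared probes limit what dim or single-copy readings can show.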
